A study of Mus musculus with 18 samples.

Results

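The 10 genes described here make and load major histocompatibility complex (MHC) class I molecules in the mouse. They were taken by symbol from the gene rows of the deposited count table, and all 10 were found among its 23453 symbols. H2-K1 and H2-D1 encode the classical heavy chains that show peptides to CD8 T cells, and H2-T22 and H2-T23 encode nonclassical heavy chains. B2m encodes beta-2-microglobulin, the light chain of every class I molecule. Tap1 and Tap2 encode the pair of subunits of the transporter that carries peptides into the endoplasmic reticulum. Tapbp encodes tapasin, which bridges that transporter and empty class I molecules, and Erap1 encodes the aminopeptidase that trims peptides there. Nlrc5 encodes the transactivator that switches on class I promoters.

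By way of background, proteasomes cut cytosolic proteins into peptides, the transporter moves these into the endoplasmic reticulum, and tapasin helps them settle in a heavy chain paired with beta-2-microglobulin. Nearly all nucleated cells, leukocytes included, make class I molecules, and interferon raises most of the machinery through factors that include IRF1 and NLRC5. B16F10 is a melanoma line of the C57BL/6 mouse that is widely known for low class I expression in culture and for its induction by interferon gamma.

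The study knocked down Hgs, which encodes the endosomal sorting protein Hrs of the ESCRT machinery, and measured RNA by sequencing. Each shHrs group carried a lentiviral shRNA against Hgs from the pLKO.1 vector, and each shCTL group a scrambled shRNA, after drug selection of the infected cells. Cultured cells came in a batch 1 with 2 shHrs and 2 shCTL libraries and a batch 2 with the same numbers. Tumours grown from such cells in immunocompetent wild-type female C57BL/6 mice of 6 to 8 weeks gave 5 shHrs and 5 shCTL libraries. The labels call the samples biological repeats but do not say that cultures were grown apart, so p-values measure the spread between these libraries, which for cultures may be partly technical. The labels call the tumours both xenografts and homografts. No source used here gives the site and age of the tumours or the number of shRNA sequences.

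In GRCm38, the assembly behind mm10, 7 of the genes lie on chromosome 17. In order along it these are Tapbp (chr17:33915899-33929292), H2-K1 (chr17:33996017-34000347), Tap1 (chr17:34187553-34197225), Tap2 (chr17:34203527-34216321), H2-D1 (chr17:35262730-35267499), H2-T23 (chr17:36029773-36032855) and H2-T22 (chr17:36037128-36042747). H2-K1, H2-T23 and H2-T22 are read from the minus strand and the rest from the plus strand. B2m lies at chr2:122147686-122153083, Erap1 at chr13:74639568-74693201 and Nlrc5 at chr8:94434356-94527272, all on the plus strand. All 10 are annotated as protein-coding by GENCODE. Heavy chain genes resemble each other: of the windows of 125 bases in their annotated transcripts, 3.04% were also found in another gene for H2-T22, 2.62% for H2-D1, 1.2% for H2-T23 and 0.072% for H2-K1. The other 6 genes shared none. Reads from such stretches could be assigned to a neighbour, chiefly H2-T10 for H2-T22, so the values of H2-T22 are the least certain of the heavy chains.

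RefSeq promoter windows on GRCm38.p6, from 250 bases before to 50 bases after the start, were at hand for 8 of the 10 genes, all but Tap2 and Nlrc5. The 5 shown are those of the classical heavy chains, their light chain, Tap1 and Tapbp. Capitals mark matches to 4 motifs on either strand: AANNGAAA, a core bound by interferon regulatory factors (IRF); GGGNNTTCC, bound by NF-kB; TGACG, the X2 box; and CCAAT, the Y box. X2 and Y boxes belong to the module through which NLRC5 acts. In these windows no match overlapped another. The windows are chr17:34000298-34000597 (minus strand), chr17:35262844-35263143, chr2:122147437-122147736, chr17:34187306-34187605 and chr17:33919228-33919527 (plus strand), each written 5′ to 3′ along the gene.
H2-K1: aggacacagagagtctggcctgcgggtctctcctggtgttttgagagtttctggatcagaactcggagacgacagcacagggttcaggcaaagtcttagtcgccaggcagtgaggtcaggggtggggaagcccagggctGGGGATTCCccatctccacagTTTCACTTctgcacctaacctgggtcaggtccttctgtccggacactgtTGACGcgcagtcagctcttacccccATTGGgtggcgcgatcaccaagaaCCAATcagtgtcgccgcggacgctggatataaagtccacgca
H2-D1: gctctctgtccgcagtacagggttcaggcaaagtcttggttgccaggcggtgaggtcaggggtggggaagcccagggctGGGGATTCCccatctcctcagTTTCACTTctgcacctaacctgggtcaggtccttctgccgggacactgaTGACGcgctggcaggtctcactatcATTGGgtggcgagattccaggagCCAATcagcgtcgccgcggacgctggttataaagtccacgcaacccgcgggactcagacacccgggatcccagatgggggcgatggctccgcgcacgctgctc
B2m: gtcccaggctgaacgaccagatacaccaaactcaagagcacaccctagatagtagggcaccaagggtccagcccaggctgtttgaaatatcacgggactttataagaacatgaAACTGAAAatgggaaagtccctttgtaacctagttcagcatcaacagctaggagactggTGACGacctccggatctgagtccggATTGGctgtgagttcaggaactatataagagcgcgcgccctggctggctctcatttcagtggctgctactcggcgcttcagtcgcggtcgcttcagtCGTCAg
Tap1: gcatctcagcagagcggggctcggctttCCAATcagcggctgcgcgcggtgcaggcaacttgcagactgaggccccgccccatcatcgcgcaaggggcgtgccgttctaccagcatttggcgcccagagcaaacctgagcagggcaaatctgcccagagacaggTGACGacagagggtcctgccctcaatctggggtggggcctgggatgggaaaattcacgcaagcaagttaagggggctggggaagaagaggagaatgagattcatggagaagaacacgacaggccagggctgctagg
Tapbp: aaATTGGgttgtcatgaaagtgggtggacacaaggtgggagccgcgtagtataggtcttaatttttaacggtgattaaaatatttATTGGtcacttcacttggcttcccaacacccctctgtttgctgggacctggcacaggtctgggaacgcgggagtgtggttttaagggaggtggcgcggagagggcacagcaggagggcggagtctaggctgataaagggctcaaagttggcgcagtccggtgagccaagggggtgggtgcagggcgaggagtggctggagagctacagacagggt

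All 4 motifs were present in the windows of H2-K1 and H2-D1, whose longest identical run was 47 bases. B2m and H2-T22 held an IRF match with an X2 and a Y match but no NF-kB match. Tap1 held an X2 and a Y match without an IRF match, Tapbp held Y matches alone, H2-T23 held IRF and Y matches, and Erap1 held an IRF match alone. IRF, X2 and Y matches thus stood together in 4 of the 8 windows, against 1.67% of all 27025 RefSeq promoter windows of this length. Singly, the IRF motif was in 6 of 8 windows against 24.2% of all windows, the NF-kB motif in 2 of 8 against 5.72%, the X2 box in 5 of 8 against 21.0% and the Y box in 7 of 8 against 37.9%. A match describes letters in a window and not binding. The Tapbp window (from chr17:33919228) lay downstream of the GENCODE start of the gene (chr17:33915899). So did those of H2-D1 (from chr17:35262844, GENCODE start chr17:35262730) and Erap1 (from chr13:74639603, GENCODE start chr13:74639568). The matches in these windows thus describe RefSeq starts within the genes.

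Libraries held between 17.6 M and 27.7 M counts. Levels are given as CPM, that is counts scaled to a library of 1 M, after TMM scaling over all 18 libraries. Hgs was lower in every shHrs library than in any shCTL library. Its CPM were 35.2 and 30.4 in batch 1 shHrs, 95.0 and 113 in batch 1 shCTL, 44.6 and 41.3 in batch 2 shHrs, 97.8 and 107 in batch 2 shCTL, 16.1 to 29.2 in shHrs tumours and 95.8 to 112 in shCTL tumours. Melanocyte markers were high in all groups, with summed CPM of 8 markers from 4468 to 19430 in cultures and from 20170 to 27670 in tumours. In cultures the leukocyte markers Ptprc and Lcp2 had at most 3 counts in a library, Cd48 at most 4 and Cd52 and Cd53 0, while Laptm5 reached 21, Itgb2 64 and Coro1a 101.

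In culture the light chain stood far above the rest of the machinery, and the transporter genes and Nlrc5 were close to the bottom. Per kilobase of exon, B2m had 282 ± 42.9 CPM per kb in batch 1 shHrs, 253 ± 33.0 in batch 1 shCTL, 401 ± 64.7 in batch 2 shHrs and 204 ± 5.43 in batch 2 shCTL cells (SD, n = 2 each, as for all culture groups). H2-D1, H2-K1 and Tapbp followed in every group, with means from 11.1 to 63.5 CPM per kb. The other 6 genes had means from 0.123 to 2.30 CPM per kb. Among those low genes the ranges of most neighbours in the order overlapped, except in batch 2 shCTL, so the ranges do not resolve their order elsewhere. Counts behind the low genes were small: per culture library, Nlrc5 had 13 to 144, Tap1 22 to 208, Tap2 23 to 131, H2-T23 23 to 160 and H2-T22 31 to 129.

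**Figure D1:**
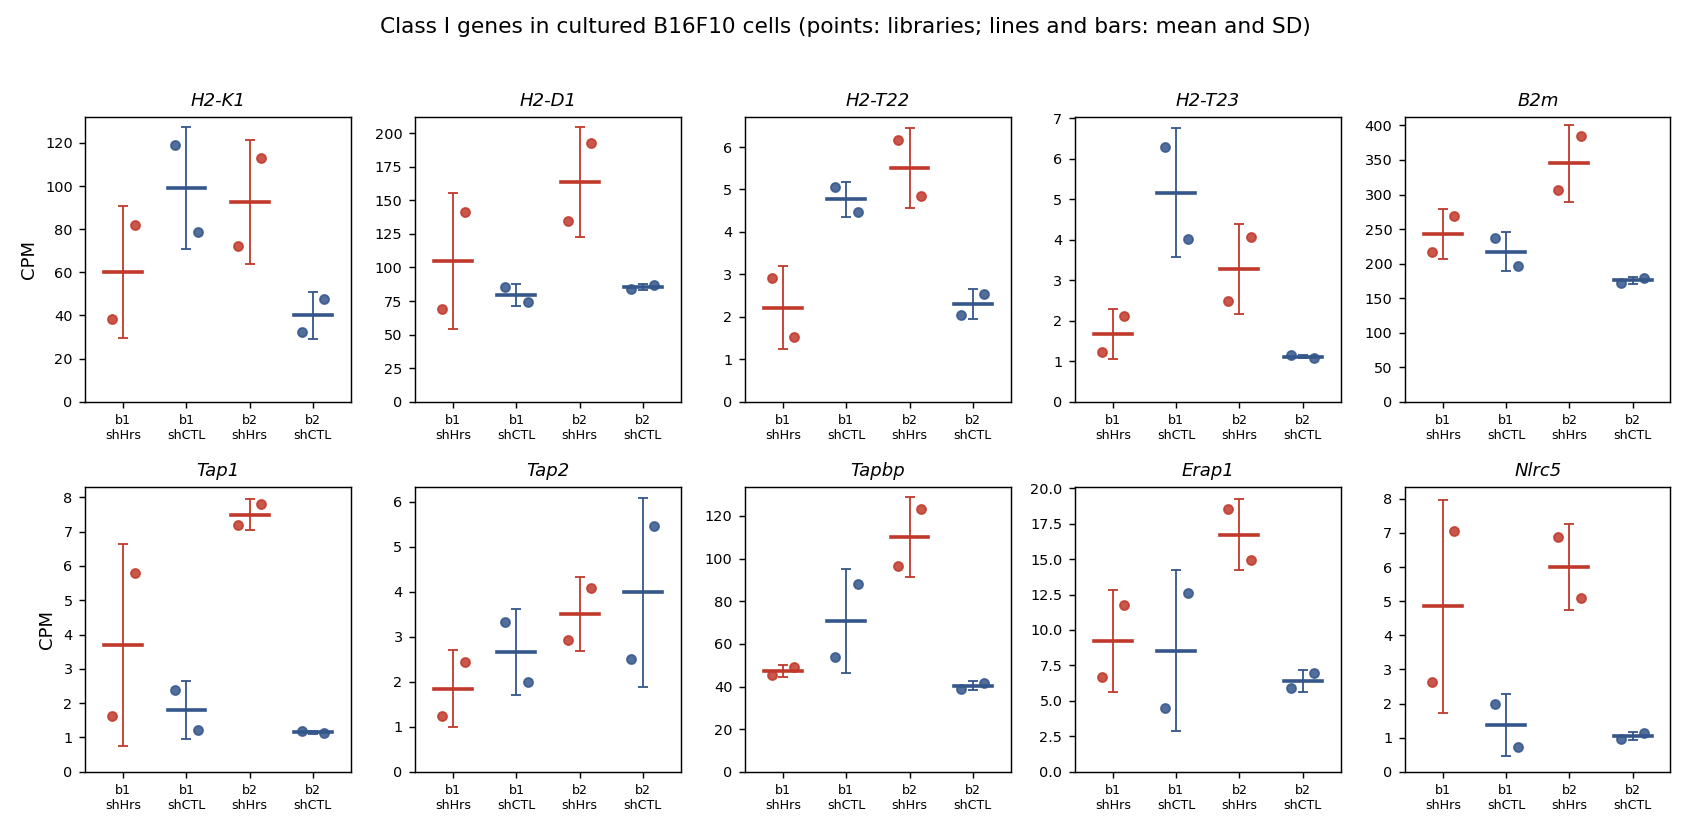
CPM of each gene (y axis, from 0) in the 8 culture libraries, by batch (b1, b2) and treatment, with points for libraries and lines and bars for the mean and SD of 2. In batch 2 the shHrs points lie above the shCTL points for all genes but Tap2, while in batch 1 they lie below for H2-T22, H2-T23 and Tapbp.

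Batch 2 cultures with shHrs had more RNA of 9 of the 10 genes than those with shCTL, without overlap between libraries, and Tapbp passed the test. Tapbp had 96.7 and 124 CPM in shHrs and 38.8 and 41.8 CPM in shCTL, a log2 fold change of 1.40 (SE 0.28, adjusted p = 0.0382). Adjusted p come from the quasi-likelihood test of edgeR, corrected by Benjamini-Hochberg across every gene in the fit, and a gene was called below 0.05. In this comparison 1.6% of 12897 genes were called higher in shHrs and 4.03% in either direction, while 35% lay wholly higher in shHrs and 34.7% wholly lower. The 1 of 10 called and the 9 of 10 without overlap are to be read against those shares.

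The largest fitted differences in batch 2 were those of the transporter subunit Tap1 and the transactivator Nlrc5, which missed the threshold. Tap1 had 7.18 and 7.81 CPM in shHrs and 1.19 and 1.13 in shCTL (log2 fold change 2.64, SE 0.63, adjusted p = 0.0553). Nlrc5 had 6.89 and 5.11 CPM in shHrs and 0.958 and 1.13 in shCTL (2.47, SE 0.64, adjusted p = 0.0654). For both genes every shHrs library was severalfold above every shCTL library. B2m, the most abundant, had 306 and 385 CPM in shHrs and 172 and 179 in shCTL, with a log2 fold change of 0.93 (SE 0.23, adjusted p = 0.0598).

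The heavy chains were also above their controls in batch 2, and none of the 4 passed. H2-K1 had 72.3 and 113 CPM in shHrs and 32.3 and 47.7 in shCTL, and H2-D1 had 135 and 193 in shHrs and 83.9 and 86.9 in shCTL. H2-T23, whose product Qa-1 is read by inhibitory receptors of NK cells, had 2.49 and 4.05 CPM in shHrs and 1.14 and 1.09 in shCTL. H2-T22, whose product is bound by some gamma delta T cells, had 6.17 and 4.84 CPM in shHrs and 2.05 and 2.55 in shCTL. Their log2 fold changes ran from 0.89 for H2-D1 to 1.5 for H2-T23, with adjusted p from 0.0953 to 0.131. Erap1 had 1.33 (SE 0.50, adjusted p = 0.129). Tap2, the partner of Tap1, was the exception, with 2.92 and 4.09 CPM in shHrs and 2.51 and 5.46 in shCTL, so its libraries overlapped (-0.23, SE 0.54).

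The number of these genes called in batch 2 depended on the model. Fitted on the 4 libraries of batch 2 alone, 9 of 10 passed and so did 4303 genes in all. DESeq2 called 7 of 10 with 1988 genes in all, and limma voom 2 of 10 with 645. Leaving out any 1 of the 4 libraries left 0 of 10 and 0 genes in all. Melanocyte markers stood apart in the same libraries, with summed CPM of 4468 and 5375 in batch 2 shHrs and 11790 and 14020 in batch 2 shCTL, 0 of 8 of them called and 2 of 8 with a positive log2 fold change; their part in the result was not tested. The median log2 fold change of the 10 genes was 1.27 in batch 2, beside -0.05 over all genes tested, and 9 of 10 were positive, beside 47.3% of all genes. The same 9 had an unadjusted p under 0.05, beside 13% of all genes that were higher at that level and 27.9% in either direction.

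Batch 1 did not show that pattern. Of the 10 genes 0 passed edgeR's test, with 0 also by DESeq2 and by limma voom and 3 at an unadjusted p under 0.05, beside 0% of all 12897 genes called and 9.38% at the unadjusted level. Nlrc5 was the one gene with both shHrs libraries above both shCTL libraries, at 2.64 and 7.06 CPM in shHrs and 2.00 and 0.717 in shCTL (1.80, SE 0.62, adjusted p = 0.479). Without batch 1 shHrs 1 its adjusted p was 0.0267, in a fit that called 1496 genes in all. H2-T22, H2-T23 and Tapbp had both shHrs libraries below both shCTL libraries. Of all genes, 15.3% lay wholly higher and 16.8% wholly lower in shHrs in batch 1.

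H2-T23 had 1.24 and 2.11 CPM in batch 1 shHrs and 6.28 and 4.03 in batch 1 shCTL (-1.63, SE 0.48, adjusted p = 0.405). H2-T22 had 2.91 and 1.52 CPM in shHrs and 5.06 and 4.47 in shCTL (-1.11, SE 0.44, adjusted p = 0.517). Tapbp had 45.4 and 49.2 CPM in shHrs and 53.7 and 88.1 in shCTL (-0.59, SE 0.28, adjusted p = 0.555). H2-K1 had 38.5 and 81.9 CPM in shHrs and 119 and 78.9 in shCTL (-0.73, SE 0.40, adjusted p = 0.603), and its libraries overlapped. All 4 of these log2 fold changes were negative in batch 1 and positive in batch 2. The classical partner H2-D1 (0.38, SE 0.33), B2m (0.15, SE 0.23), Erap1 (0.10, SE 0.49), Tap1 (1.01, SE 0.61) and Tap2 (-0.54, SE 0.56) overlapped as well. The log2 fold change was positive for 5 of 10, beside 50.6% of all genes, with a median of -0.22, beside 0.01 over all genes. Summed CPM of the 9 macrophage markers differed between the same libraries, at 1.91 and 2.69 in batch 1 shHrs and 9.93 and 29.3 in batch 1 shCTL, against 3.78 and 4.43 in batch 2 shHrs and 2.75 and 3.88 in batch 2 shCTL. Cd68 was the most abundant of them, with up to 522 counts in a culture (-3.17 in batch 1, SE 0.56, adjusted p = 0.170). Csf1r reached 14 counts (-3.06, SE 2.11, adjusted p = 0.662), the others had at most 2, and Mrc1 and C1qa were at 0. Their part in the result was not tested.

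The difference between the batches' effects was itself tested in a fit of the 8 cultures. It was positive for all 10 genes, batch 2 minus batch 1, beside 48.1% of all genes, with a median of 1.44. Past the threshold were 0 of the 10, beside 0.155% of 12897 genes, and 5 had an unadjusted p under 0.05, beside 20.3%. DESeq2 called 4 and limma voom 0. Tapbp (2.00, SE 0.39, adjusted p = 0.0714) and H2-T23 (3.13, SE 0.68, adjusted p = 0.0814) came closest. Without batch 1 shHrs 1 or without batch 1 shHrs 2 in turn, 3 of the 10 passed each time, Tapbp and H2-T23 both times, and without batch 1 shCTL 1 Tapbp passed. The fit without batch 1 shHrs 1 called 1968 genes in all. For Nlrc5 the difference was 0.67 (SE 0.87), so its effect in batch 2 was not shown to differ from that in batch 1.

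Fitted over both batches with batch as a term, Nlrc5 (2.14, SE 0.46, adjusted p = 0.256) and Tap1 (1.82, SE 0.53, adjusted p = 0.319) had the largest fold changes of the 10. None of them was called (0 of 10), nor was any of 12617 genes (0%), while 4 had an unadjusted p under 0.05, beside 13.3% of all genes. The sign was positive for 8 of 10, beside 48.3% of all genes. DESeq2 called both Nlrc5 and Tap1, limma voom called 0, and edgeR without batch 1 shHrs 1 called both, at adjusted p = 0.0395 and 0.043, with 164 genes called in all.

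**Figure D2:**
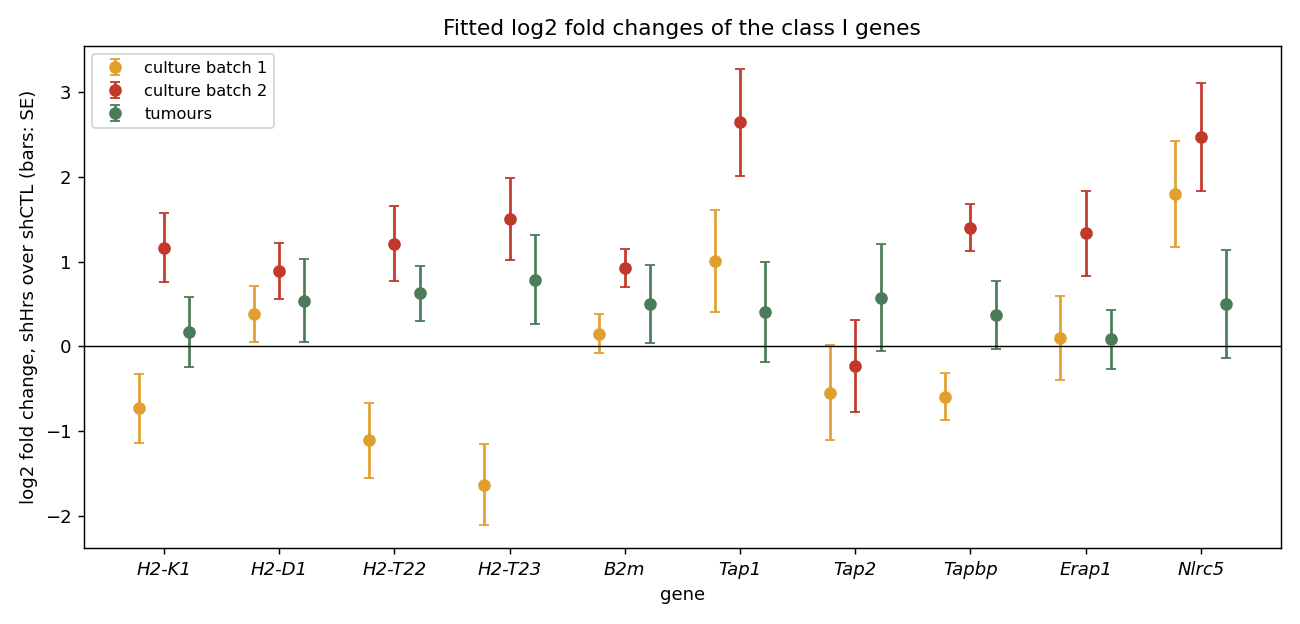
Fitted log2 fold changes of shHrs over shCTL (y axis) with standard errors as bars, for each gene (x axis) in culture batch 1, culture batch 2 and tumours. Batch 2 points lie above 0 for 9 of 10 genes, batch 1 points for 5 of 10 and tumour points for all 10, and the tumour values lie between 0.08 and 0.79.

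Among the other genes of the pathway in cultures, few passed. Pdia3, which encodes the disulfide isomerase ERp57 of the loading complex, had 771 ± 146 CPM in batch 2 shHrs and 306 ± 4.97 in batch 2 shCTL (1.28, SE 0.27, adjusted p = 0.0444), the 1 called of 7 loading and folding helpers. The chaperones Calr (1.12, SE 0.31, adjusted p = 0.0732) and Canx (0.40, SE 0.23, adjusted p = 0.296) did not pass. Irf9, which encodes the DNA-binding subunit of the interferon-stimulated factor, had 46.7 ± 1.81 CPM in batch 2 shHrs and 6.79 ± 0.251 in batch 2 shCTL (2.73, SE 0.51, adjusted p = 0.0329), the 1 called of 9 interferon receptor and signalling genes. Nfya, a subunit of the factor that binds Y boxes, had 56.7 ± 10.2 CPM in batch 2 shHrs and 118.9 ± 14.5 in batch 2 shCTL (-1.12, SE 0.25, adjusted p = 0.049), and was the 1 called of 11 class I regulators. Irf1, which encodes an interferon regulatory factor, had 0.52 (SE 0.39, adjusted p = 0.413).

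Of the inducible proteasome subunits, which favour peptides that class I molecules bind, Psmb8 and Psmb9 were almost silent in culture, unlike Psmb10. Psmb8 had 0 counts in all batch 1 libraries, 0.0479 and 0.413 CPM in batch 2 shHrs and 0 counts in batch 2 shCTL, and Psmb9 stayed at or under 0.287 CPM, so neither entered the test. Psmb10 had 23.8 ± 8.52 CPM in batch 2 shHrs and 7.02 ± 0.257 in batch 2 shCTL (1.71, SE 0.49, adjusted p = 0.0777), and the proteasome activator gene Psme1 had 0.58 (SE 0.23, adjusted p = 0.149). In batch 2, 5 of the 7 helpers, 3 of the 3 tested genes of the immunoproteasome and activator list, 6 of the 11 regulators, 2 of the 4 tested other heavy chains and 6 of the 9 interferon signalling genes had a positive log2 fold change, beside 47.3% of all genes. Over all genes 4.03% were called in either direction in batch 2. In batch 1 none of those genes passed edgeR's test, with 2 at an unadjusted p under 0.05, beside 0% and 9.38% of all genes. Irf9 had 26.9 ± 20.2 CPM in shHrs and 10.3 ± 3.25 in shCTL. Of the other heavy chains, H2-Q4 had -0.40 (SE 0.28) in batch 2 and -0.02 (SE 0.28) in batch 1. H2-M3 had 0.72 (SE 0.83) in batch 2 and 0.59 (SE 0.90) in batch 1. H2-Q7 had a single count over all 18 libraries, but how reads shared by alike heavy chains were counted is not given. Its low count thus need not mean low expression.

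In tumours all 10 genes stood higher than in culture by the median over libraries, from 1.46-fold for H2-T22 to 36.0-fold for Tap1. After Tap1 came Nlrc5 at 20.3-fold, Tap2 at 14.7-fold and H2-T23 at 14.3-fold. The order of these 4 differed between the shHrs and the shCTL samples, and that difference in order was not tested. By the ratio of means, shHrs tumours exceeded shHrs cultures by 21.2-fold for Tap2, 19.5-fold for H2-T23, 16.1-fold for Tap1 and 12.7-fold for Nlrc5. The shCTL tumours exceeded shCTL cultures by 46.2-fold for Tap1, 40.5-fold for Nlrc5, 11.5-fold for Tap2 and 8.92-fold for H2-T23. H2-T22, also low in culture, had the smallest ratio of the 10 in both, 1.51 in shHrs and 1.07 in shCTL. H2-K1 (6.80-fold), B2m (6.10-fold), Erap1 (5.45-fold), H2-D1 (5.09-fold) and Tapbp (2.30-fold) lay between. The lowest tumour exceeded the highest culture for H2-K1 and H2-T23 alone. Bulk tumours hold host cells as well as melanoma cells, and in such samples fewer cells of a type and less RNA per cell cannot be told apart. These ratios are descriptive and were not tested.

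Per kilobase, B2m again led in tumours, at 1896 ± 899 CPM per kb in shHrs and 1342 ± 659 in shCTL (SD, n = 5 each, as for all tumour groups). The classical heavy chains followed, H2-D1 at 219 ± 124 and H2-K1 at 188 ± 96.6 in shHrs, and H2-D1 at 151 ± 77.2 and H2-K1 at 168 ± 74.4 in shCTL. Tapbp came next at 39.3 ± 21.4 in shHrs and 30.5 ± 14.0 in shCTL, and H2-T22 was last at 1.71 ± 0.432 in shHrs and 1.11 ± 0.501 in shCTL. In both groups the range of B2m over tumours lay wholly above that of the next gene, while in shCTL the ranges of all other neighbours overlapped. In shHrs, the range of H2-K1 also lay above that of Tapbp, and that of Erap1 above that of H2-T22. These ranges pool tumours, so an overlap does not mean that the order changed within a tumour.

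**Figure D3:**
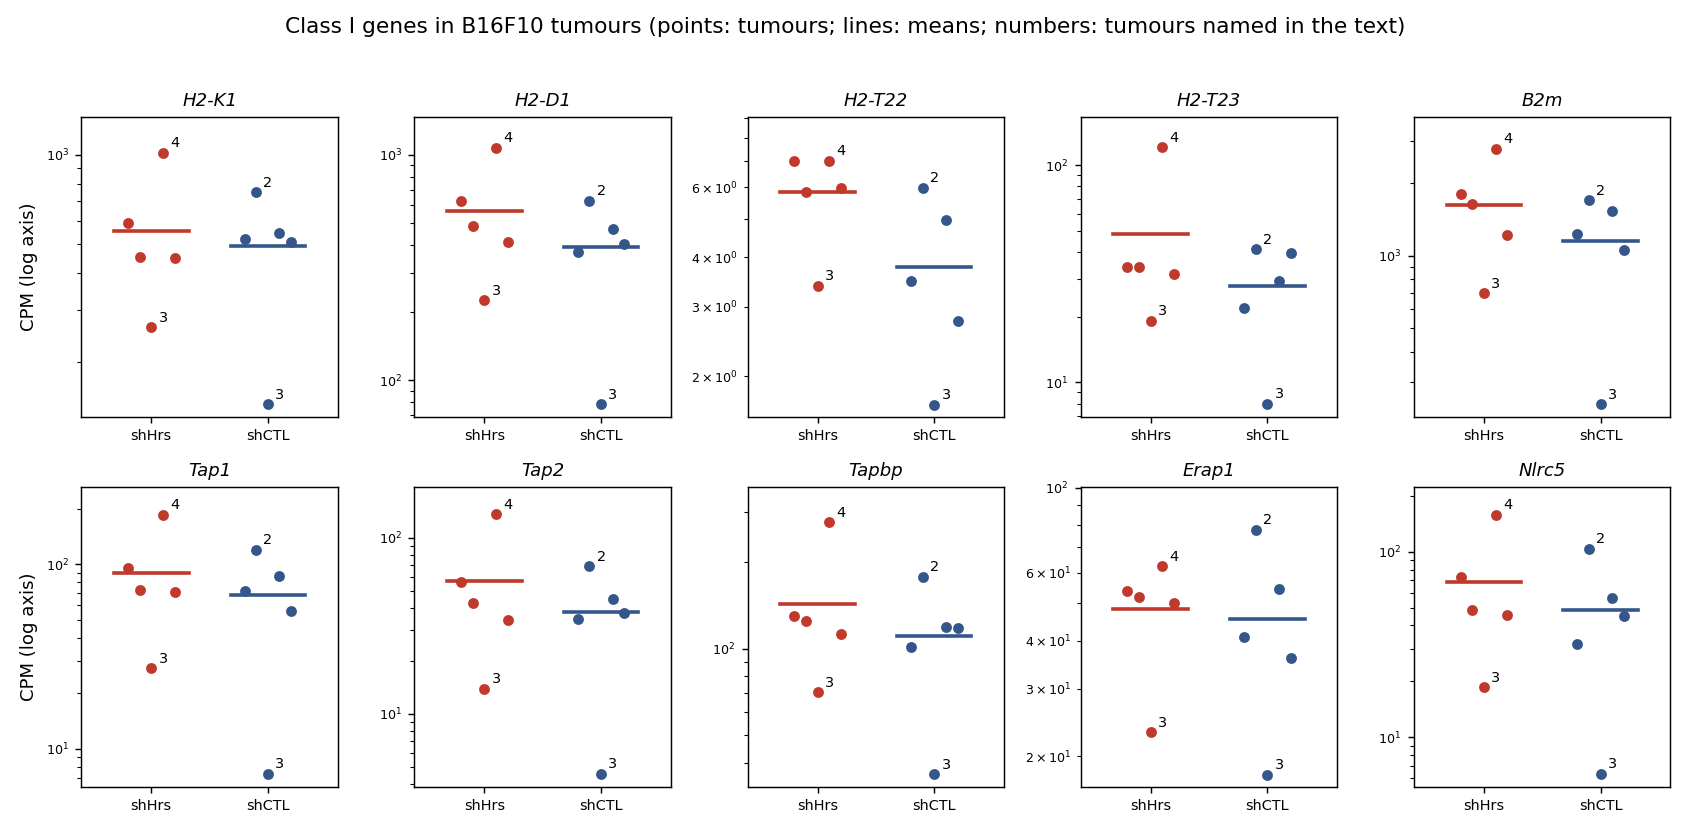
CPM of each gene on a log axis in the 10 tumours, with shHrs left of shCTL, points for tumours and lines for means; the numbers mark shHrs tumours 4 and 3 and shCTL tumours 2 and 3. The groups overlap for all 10 genes, shCTL tumour 3 is the lowest point for every gene and shHrs tumour 4 the highest for 9.

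None of the 10 genes differed between shHrs and shCTL tumours beyond the spread between tumours. H2-K1 had 590.1, 451, 262, 1016 and 447 CPM in shHrs tumours 1 to 5 and 521, 749, 144, 546 and 507 CPM in shCTL tumours 1 to 5. H2-D1 had 622, 485, 227, 1076 and 410.0 CPM in shHrs and 369.7, 625, 78.6, 469 and 400.3 in shCTL. B2m had 1805, 1646, 701, 2782 and 1219 CPM in shHrs and 1235, 1699, 243, 1532 and 1061 in shCTL. For each of these genes shHrs tumour 4 was above and shCTL tumour 3 below the other 8, among which the groups were intermixed.

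The transporter genes and Nlrc5 had the widest ranges across tumours among the 10 genes. Tap1 had 95.0, 72.2, 27.3, 186 and 70.7 CPM in shHrs and 72.0, 119.8, 7.32, 86.7 and 55.6 in shCTL. Tap2 had 56.2, 42.4, 13.9, 137 and 34.1 CPM in shHrs and 34.6, 68.9, 4.57, 45.1 and 37.4 in shCTL. Nlrc5 had 73.3, 48.8, 18.6, 159 and 45.4 CPM in shHrs and 31.8, 103.8, 6.33, 56.6 and 44.7 in shCTL. The highest tumour exceeded the lowest by 29.9-fold for Tap2, 25.4-fold for Tap1 and 25.1-fold for Nlrc5, beside 15.3-fold for H2-T23, 13.7-fold for H2-D1, 7.07-fold for H2-K1 and 4.13-fold for H2-T22. The lowest tumour was shCTL tumour 3 for all 10 genes. Without it, left out after its values were seen, the range was 9.83-fold for Tap2, 8.53-fold for Nlrc5, 6.80-fold for Tap1 and 6.31-fold for H2-T23, beside 4.75-fold for H2-D1, 3.88-fold for H2-K1 and 2.54-fold for H2-T22.

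H2-T23 had 33.9, 34.0, 19.3, 122 and 31.7 CPM in shHrs tumours and 21.98, 41.0, 7.97, 29.4 and 39.3 in shCTL tumours, so a single shHrs tumour stood severalfold above the rest. H2-T22 had 6.98, 5.83, 3.39, 7.01 and 5.99 CPM in shHrs and 3.48, 5.99, 1.70, 4.95 and 2.77 in shCTL. Its groups overlapped, and its adjusted p was the lowest of the 10 (log2 fold change 0.63, SE 0.33, adjusted p = 0.43). Tapbp ranged from 70.5 to 275 CPM with a median of 125 in shHrs and from 36.5 to 178 with a median of 118 in shCTL. Erap1 ranged from 23.1 to 62.3 CPM with a median of 51.8 in shHrs and from 17.9 to 77.7 with a median of 41.0 in shCTL, and was the gene whose highest tumour was not shHrs 4 but shCTL 2.

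Fitted over the 10 tumours, the log2 fold changes were positive for 10 of 10 genes, beside 51.5% of 13215 genes tested, with a median of 0.50 beside 0.01 over all genes. Of the 10 genes 0 passed edgeR's test, beside 0.545% of all genes called. DESeq2 and limma voom also called 0 of 10, and 0 had an unadjusted p under 0.05, beside 14.1% of all genes. The log2 fold changes ran from 0.08 (SE 0.35, adjusted p = 0.944) for Erap1 and 0.17 (SE 0.41, adjusted p = 0.897) for H2-K1 to 0.79 (SE 0.52, adjusted p = 0.553) for H2-T23. B2m had 0.50 (SE 0.46, adjusted p = 0.686) and Nlrc5 0.51 (SE 0.64, adjusted p = 0.781). No gene of the 10 had groups without overlap, beside 4.28% of all genes.

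The shared positive sign depended on a pair of tumours, the highest shHrs tumour and the lowest shCTL tumour. Leaving these out lowers the shHrs mean or raises the shCTL mean by construction, so the direction of the change was fixed in advance. Without shHrs tumour 4 the log2 fold change was positive for 4 of 10 genes, with a median of -0.03, and without shCTL tumour 3 for 8 of 10, with a median of 0.23. Without both, an alternative added after the data were seen, it was positive for 1 of 10, with a median of -0.24. H2-T22 was the remaining positive gene, at 0.36, and H2-K1 was the lowest at -0.42. Leaving out any other single tumour kept 10 of 10 positive.

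The tumour effect minus the mean culture effect was also tested, over all 18 libraries. Of the 10 genes 0 passed (0 at an unadjusted p under 0.05, and 0 by DESeq2 and by limma voom), beside 3.61% of 14458 genes called and 21% at the unadjusted level. The difference was positive for 3 of 10, beside 51.2% of all genes. The widest differences were those of Nlrc5 (-1.65, SE 0.96, adjusted p = 0.351) and Tap1 (-1.45, SE 0.90, adjusted p = 0.39). The effects of Tap1 and Nlrc5 in tumours were thus not resolved from those in culture.

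Of the other pathway genes none passed in tumours, and the inducible ones varied widely between tumours. Psmb8 and Psmb9, the inducible proteasome subunits, had 69.4 ± 63.3 and 46.1 ± 43.9 CPM in shHrs tumours, and 49.3 ± 37.7 and 30.8 ± 21.4 CPM in shCTL tumours. Their log2 fold changes were 0.50 (SE 0.81, adjusted p = 0.832) and 0.59 (SE 0.75, adjusted p = 0.785). Irf1 had 57.1 ± 38.5 CPM in shHrs and 38.1 ± 20.4 in shCTL and did not pass (adjusted p = 0.636). H2-Q4 had 98.9 ± 65.9 CPM in shHrs and 73.9 ± 37.4 in shCTL. The chaperones varied far less, as Pdia3 had 994 ± 135 CPM in shHrs and 902 ± 36.2 in shCTL (0.14, SE 0.10, adjusted p = 0.609) and Calr 1652 ± 355 in shHrs and 1406 ± 31.0 in shCTL (0.23, SE 0.14, adjusted p = 0.494). Of the 6 other heavy chains, 7 helpers, 5 immunoproteasome and activator genes, 12 regulators and 9 interferon signalling genes tested, edgeR called 0, with 6, 4, 5, 6 and 7 positive, beside 0.545% of all genes called and 51.5% positive. An unadjusted p under 0.05 was found for 4 of the 9 interferon signalling genes, beside 14.1% of all genes.

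Leukocyte markers varied across the same tumours. The 8 markers, among them Ptprc (CD45), had summed CPM from 52.5 to 272 with a median of 81.8 in shHrs tumours, and from 18.3 to 134 with a median of 77.4 in shCTL tumours. In cultures the sum was 2.32 to 5.74 CPM, with Cd52 and Cd53 at 0. All 8 markers had a positive log2 fold change in tumours, and 0 were called, beside 51.5% and 0.545% of all genes. By the median over tumours, Ptprc, Laptm5, Coro1a, Lcp2 and Cd48 were lower in shHrs than in shCTL, and Cd53, Cd52 and Itgb2 were higher. Ptprc had 9.29, 7.76, 5.48, 30.6 and 6.23 CPM in shHrs tumours 1 to 5 and 2.17, 10.6, 0.527, 8.17 and 11.2 CPM in shCTL tumours 1 to 5. The tumour highest in 9 of the 10 genes was thus also highest in Ptprc, and the tumour lowest in all 10 was lowest in Ptprc. The mean of log2(CPM + 2) over the 8 markers was 3.53 in shHrs and 3.11 in shCTL, a difference of 0.42 (exact permutation test, two-sided, p = 0.452, adjusted p = 0.937 over 12 marker lists).

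**Figure D4:**
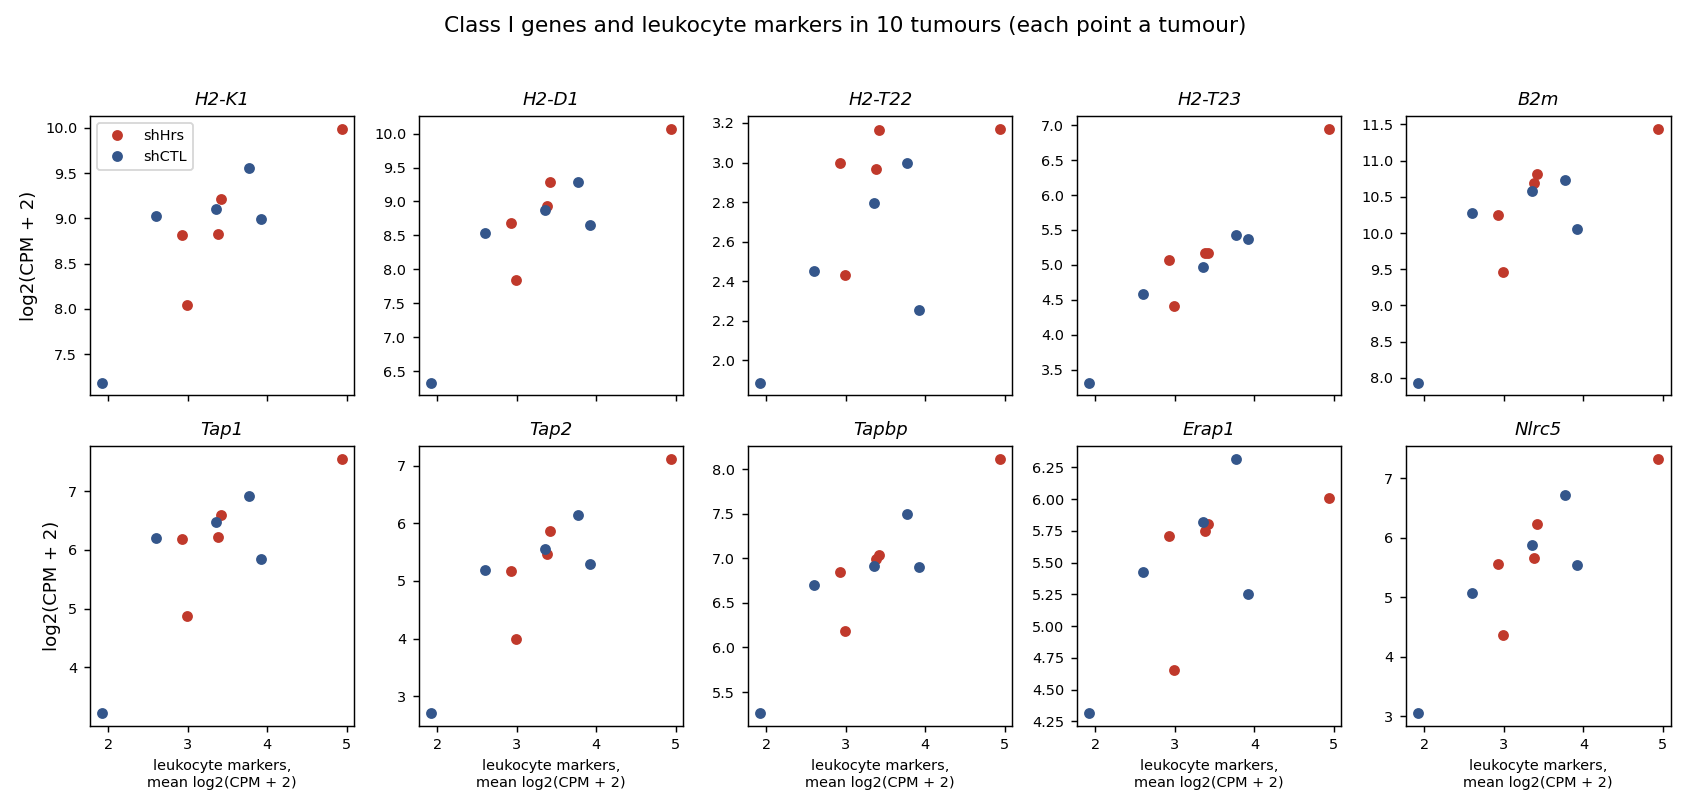
Level of each gene as log2(CPM + 2) (y axis) against the mean log2(CPM + 2) of 8 leukocyte markers (x axis), with a point for each of the 10 tumours, shHrs and shCTL marked apart. shCTL tumour 3 lies lowest and farthest left in every panel, and shHrs tumour 4 lies farthest right and is the highest for all genes but Erap1.

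With that leukocyte level, Pearson's r of log2(CPM + 2) over the 10 tumours ran from 0.62 for H2-T22 to 0.96 for H2-T23. Of the 10 relations computed, 9 had an adjusted p under 0.05 by Pearson's r and 6 by Spearman's rho (permutation tests with 100000 resamples, two-sided, Benjamini-Hochberg over the 10). For H2-T23 rho was 0.915, with permutation p = 1e-04 for r (adjusted p = 0.001) and p = 0.00034 for rho (adjusted p = 0.0034). Without shHrs tumour 4 and shCTL tumour 3, the pair farthest from the median leukocyte level, r for H2-T23 was 0.822 (permutation p = 0.0125). For the other 9 genes r then lay between 0.0883 for H2-T22 and 0.615 for Nlrc5, with permutation p of at least 0.0985. As pooled over the groups, those 9 relations were thus not resolved without these 2 tumours, in fewer tumours and over a narrower range of leukocyte level. On deviations from the group means, 9 of 10 again had an adjusted p under 0.05. Without the same 2 tumours r was then 0.893 for H2-T23 (permutation p = 0.0022) and 0.758 for Tapbp (permutation p = 0.0165). For the rest it lay between 0.388 and 0.738, with the lowest permutation p of these at 0.0278 for Nlrc5. The group means were taken with those 2 tumours included, so these last r and p still depend on them and cannot show a relation free of them.

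With the leukocyte level as a covariate in edgeR, the shHrs effect in tumours was positive for 6 of 10 genes with a median of 0.02, and 0 of 10 passed. H2-K1 then had -0.17, Tap1 -0.03, Tap2 -0.02 and Erap1 -0.07. How much of the RNA of the 10 genes came from leukocytes was not tested. Among the other 11 marker lists, none differed between shHrs and shCTL tumours after adjustment. Muscle markers had a difference of 1.97 (exact permutation p = 0.0873, adjusted p = 0.524) and red cell markers one of -1.48 (exact permutation p = 0.0317, adjusted p = 0.381).

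The 6 genes whose pattern across tumours was most like that of the 10 were named by correlation. Against the mean standardized log2(CPM + 2) of the 10 genes, over 10 tumours and 14664 genes, the closest outside the set were Psmb9 (Pearson's r 0.992), Psmb8 (0.991), H2-Q4 (0.987), the interferon-inducible GTPase genes Ifi47 (0.983) and Gbp7 (0.979), and Tgtp2 (0.977). For comparison, r was 0.956 for Irf1, 0.868 for Ptprc and -0.26 for Hgs. The members themselves, which enter that mean, had r from 0.883 for H2-T22 to 0.994 for H2-D1 and Tap2. In the 8 cultures, after subtraction of batch means, the closest of 13422 genes were Slc38a3 (0.99), Bpifc (0.987), Tnfrsf26 (0.984), Zkscan5 (0.984), Ifitm3 (0.98) and Tnxb (0.974), and the members had r from 0.296 for Tap2 to 0.928 for B2m. No gene stood on both lists of 6. These values describe libraries that share scaling and few samples, and carry no test.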

How the data were processed

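RNA of 18 libraries was sequenced as paired ends on an Illumina HiSeq after a NEBNext Ultra preparation, per the labels' protocols. The authors deposited raw counts per gene symbol, and STAR 2.4.0h2, DESeq and mm10 are named in the submitters' processing notes. Which tool counted reads, with what annotation and strand mode, is not given in the sources used here. Groups came from the labels, and all 18 columns were matched by name. The 10 genes and the other gene lists were chosen with earlier results of these data known.

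Counts were tested in edgeR 4.0.16 (R 4.3.3) with the quasi-likelihood test on genes kept by filterByExpr, TMM scaling and Benjamini-Hochberg adjustment over all genes tested. Cultures were fitted together, by batch and treatment or with batch as a term; tumours were fitted alone. Alternatives were RLE scaling, no filter, DESeq2 1.42.0, limma 3.58.1 (voom), a replicate block, other sample sets, a leukocyte covariate and leaving out each library in turn. Named outside the 10 were list genes past the threshold, at most 4 per list and comparison, some fixed class I and interferon genes, and the 6 closest in pattern. Psmb10, Cd52, Cd53 and Irf9 in batch 1 were named after their values were seen. Also named outside these rules were Laptm5, Coro1a, Lcp2, Itgb2, Cd48, Cd68, Csf1r, Mrc1, C1qa, Ifnb1, Ifna4, Ifnl2 and H2-T10. Exon lengths came from GENCODE on GRCm38. Permutation tests used SciPy 1.17.1. The code was tested on simulated data with known changes. One gene of the fixed list is not reported here.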

Additional observations from a re-analysis of the deposited data

Results flagged for a closer look

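H2-T23 in shHrs tumour 4 stood apart from the other shHrs tumours, at 121.7 CPM with the next at 34.0 CPM. Tapbp in the same tumour was at 275.1 CPM with the next at 129.5 CPM. Both gaps passed Dixon's 95% critical value for 5 samples. Of 20 groups looked at, 2 did so, and chance gives about 1 in 20. Both flags fell on the same tumour, and the genes were looked at in the same tumours. The 2 are thus not independent and cannot be weighed against that share.

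H2-T22, H2-T23 and Tapbp had effects of opposite sign in the 2 culture batches, with every shHrs library below shCTL in batch 1 and above it in batch 2. The difference of the log2 fold changes, batch 2 minus batch 1, was 2.32 for H2-T22 (edgeR, adjusted p = 0.117), 3.13 for H2-T23 (adjusted p = 0.0814) and 2.00 for Tapbp (adjusted p = 0.0714). H2-K1 also had fitted effects of opposite sign, with a difference of 1.90 (adjusted p = 0.139), but its batch 1 libraries overlapped.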

How the results depend on the processing

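RLE scaling changed no count of the 10 genes called, and the replicate block changed none either (0 of 10 over both batches, 0 in batch 1, 1 in batch 2, 0 in tumours); numbers did not pair the samples, with correlations of same-numbered deviations from -0.598 to 0.467 in tumours. In tumours, and for the tumour effect minus the culture effect, 0 of 10 were called under every setting run. Depth limits Tap1, Tap2, Nlrc5, H2-T22 and H2-T23 in culture, and 2 libraries a group limit every culture test. The cause of each change was not tested.

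Of the 10 genes, without the filter 1 was called over both batches, 8 in batch 2 and 4 for the batch difference. DESeq2 called 2, 7 and 4 there, limma voom 2 in batch 2, and the 4 libraries of batch 2 alone 9. Leaving out each library gave 0 to 2 over both batches, 0 to 1 in batch 1, 0 in batch 2 each time and 0 to 3 for the batch difference. Of all genes, over both batches 74 were called without the filter, 301 by DESeq2, 5 by limma voom and 0 to 164 leaving out a library. In batch 1 these were 438, 219 and, with the replicate block, 1, and 0 to 1496 leaving out a library. In batch 2 they were 2224 without the filter, 1988 by DESeq2, 4303 on its 4 libraries and 0 leaving out any library. For the batch difference they were 1311, 974, 13 by limma voom and 0 to 1968. In tumours DESeq2 called 521 genes, the replicate block 6, the fit of all 18 libraries 29, the leukocyte covariate 147 and leaving out a library 32 to 158. For the tumour effect minus the culture effect DESeq2 called 1395 and leaving out a library 125 to 2194.

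Fold changes that changed sign were all short of the threshold. Leaving out a library over both batches, H2-K1 ran from -0.13 to 0.64, H2-T22 from -0.32 to 0.52 and H2-T23 from -0.60 to 0.52. In batch 1, H2-D1 ran from -0.18 to 0.78, Tap1 from -0.15 to 1.63 and Erap1 from -0.48 to 1.03, and in batch 2 Tap2 from -0.68 to 0.42. For the batch difference Tap2 ran from -0.14 to 0.96 and Nlrc5 from -0.25 to 1.52. In tumours H2-K1 ran from -0.18 to 0.37, Tap1 from -0.053 to 0.71, Tap2 from -0.067 to 0.90, Tapbp from -0.027 to 0.61, Erap1 from -0.12 to 0.37 and Nlrc5 from -0.075 to 0.99. For the tumour effect minus the culture effect H2-K1 ran from -0.43 to 0.23, H2-D1 from -0.51 to 0.16, B2m from -0.36 to 0.12 and Tapbp from -0.46 to 0.17; there limma voom gave H2-D1 0.016 and B2m 0.059, and the replicate block H2-D1 0.015 and B2m 0.053. With the leukocyte covariate, tumours gave H2-K1 -0.17, Tap1 -0.029, Tap2 -0.018 and Erap1 -0.074. Without shHrs tumour 4 and shCTL tumour 3 they gave H2-K1 -0.42, H2-D1 -0.11, H2-T23 -0.16, B2m -0.052, Tap1 -0.34, Tap2 -0.35, Tapbp -0.25, Erap1 -0.24 and Nlrc5 -0.36.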

Other observations

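The ratio of H2-K1 to H2-D1, the classical heavy chains, was lower in shHrs than in shCTL tumours without overlap, though not past the threshold after adjustment. It was chosen after its values were seen, as 1 of 45 pairs of the 10 genes, of which 2 had groups that did not overlap and 3 an unadjusted p under 0.05. The other pair without overlap was H2-T22 to Erap1, with a log2 ratio higher by 0.55 in shHrs tumours (exact permutation p = 0.00794, adjusted p = 0.179). The log2 ratio of H2-K1 to H2-D1 was -0.08, -0.10, 0.21, -0.08 and 0.13 in shHrs tumours 1 to 5 and 0.50, 0.26, 0.87, 0.22 and 0.34 in shCTL tumours 1 to 5. All shHrs tumours were below all shCTL tumours, with a mean of 0.01 ± 0.14 in shHrs and 0.44 ± 0.26 in shCTL (SD, n = 5 each) and a difference of -0.42. The exact permutation test gave p = 0.00794, the smallest that 5 against 5 can give, and an adjusted p of 0.179 over the 45 pairs, which misses the threshold. Leaving out each tumour in turn gave differences from -0.48 to -0.32. The same difference was -1.10 in culture batch 1 and 0.29 in culture batch 2.

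Of 4 interferon genes looked at, Ifng had 22 counts over all 18 libraries, 14 of them in 1 library, Ifnb1 had 13, and Ifna4 and Ifnl2 had 0. Cd74, the invariant chain of class II molecules, ranged from 5.80 to 546 CPM over tumours, with medians of 90.4 in shHrs and 144.6 in shCTL and a fitted log2 fold change of 0.39 (SE 0.91, edgeR adjusted p = 0.890). Of the 7 class II presentation genes tested in tumours, 6 had a positive log2 fold change and 0 were called, beside 51.5% and 0.545% of all genes. The median over tumours was lower in shHrs than in shCTL for each of the 7. Summed CPM of the 8 listed class II genes had medians of 205.8 in shHrs and 330.9 in shCTL, with shHrs tumour 4 at 1300.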
